A study of Mus musculus with 10 samples.

Results

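The 9 genes described here, of 8252 named genes on the arrays, are the transcription factors Atf4, Atf5, Atf3, Ddit3, Cebpb and Cebpg and the stress-induced targets Ppp1r15a, Trib3 and Nupr1. They were named as factors and targets of the ATF4 pathway, by a rule that used no measured value but was set with earlier results of these data known. They were represented by 11 of the 12488 probe sets measured. Of these, 7 were on both array designs used (6 genes, with 2 probe sets for Atf3), and 4 (Ppp1r15a, Trib3, Nupr1 and another for Atf3) were on U74Av2 alone. The samples were neuronal cultures prepared from the cortex of Swiss albino mouse foetuses at gestation day 15 to 16, and kept in medium without serum. On day 5 in vitro some received 1 µM lactacystin, an inhibitor that binds the catalytic subunits of the proteasome. The groups were control at 24 h (n = 2), control at 48 h (n = 2), lactacystin at 24 h (n = 3) and lactacystin at 48 h (n = 3), with 1 Affymetrix array per sample and, in each group, 1 array of the U74A design. The lactacystin stock was dissolved in DMSO. The labels do not state whether controls received that solvent. Nor do they say that replicates came from different cultures, and the p-values therefore reflect only how far these samples spread, which may be technical.

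ATF4 is the central effector of the integrated stress response. Phosphorylation of the translation factor eIF2alpha lowers general protein synthesis, while upstream open reading frames let ribosomes reach the Atf4 coding sequence more often. ATF4 then pairs with other bZIP proteins, among them C/EBP beta and C/EBP gamma, and activates genes of amino acid supply, tRNA charging and stress adaptation together with the genes for CHOP (Ddit3), ATF3, TRIB3, NUPR1 and GADD34 (Ppp1r15a). GADD34 guides protein phosphatase to eIF2alpha and closes the loop. ATF4 protein is itself removed by the proteasome. The arrays measured mRNA, so neither ATF4 protein nor the phosphorylation of eIF2alpha was measured here.

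The promoters of the members were searched for the letters of the sites that these factors bind. RefSeq promoter windows of 250 bases before to 50 bases after the start, on build GRCm38.p6, were found for all 9 genes (10 windows, since Atf5 had 2). The composite C/EBP-ATF element TGATGNAA, on either strand, was in the windows of Atf3, Nupr1 and Trib3 and in 3.97% of the 32851 mouse promoters searched. The match lay at -110 from the start in both Atf3 and Nupr1, and at +15 in Trib3. The cyclic AMP response element TGACGTCA was found at -12 in Ppp1r15a and in 1.79% of promoters. The AP-1 site TGANTCA was found at -242 in Ddit3 and in 7.81% of promoters. TGACGTGG (0.676% of promoters), TTNCGNAA (2.47%) and the ERSE (0.119%) were in no member window. No searched motif was in the windows of Atf4, Atf5, Cebpb and Cebpg. The 150 bases before the start are shown for the 3 genes with a match in that stretch, on the strand of the gene, to show the letters around each match. Whether these letters bear on the signals of the members was not tested. Capitals mark the match to TGATGNAA, read on the other strand, in Atf3 and Nupr1, and to TGACGTCA in Ppp1r15a. The stretches are chr1:191183334-191183483 for Atf3, chr7:126625471-126625620 for Nupr1 and chr7:45526269-45526418 for Ppp1r15a, all on the minus strand.
Atf3: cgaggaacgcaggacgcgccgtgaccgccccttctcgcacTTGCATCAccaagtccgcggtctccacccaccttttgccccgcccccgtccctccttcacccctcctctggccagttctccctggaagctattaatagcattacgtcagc
Nupr1: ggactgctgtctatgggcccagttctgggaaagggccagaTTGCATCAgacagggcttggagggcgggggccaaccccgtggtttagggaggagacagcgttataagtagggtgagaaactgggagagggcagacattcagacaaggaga
Ppp1r15a: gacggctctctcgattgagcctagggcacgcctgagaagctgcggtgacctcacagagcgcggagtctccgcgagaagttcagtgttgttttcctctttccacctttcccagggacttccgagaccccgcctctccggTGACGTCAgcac

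Values are the deposited MAS5 signals, an intensity per probe set on a linear scale. Each array was scaled to a trimmed mean of 500 over the probe sets that both designs share. For the 4 member probe sets on U74Av2 alone, and the fit of that design, the scaling was over all its 12422 probe sets other than controls. Changes are log2 differences of signal + 32, from a limma fit of the 10 arrays that included the design as a covariate, and adjusted p-values cover all 6984 probe sets tested. The 3 other genes were on U74Av2 alone and were fitted on the 6 arrays of that design (8695 probe sets tested), where each control group held 1 array and the spread came from the lactacystin groups. Median signals of the arrays ran from 140.6 to 234.1, and between 19.9% and 27.8% of an array's shared values were below 32, the pseudocount. In each group the U74A array had the lowest Atf4 and Atf5 signal. The fitted difference, U74Av2 minus U74A, was 1.15 for Atf5 and 0.78 for Atf4 on the log2 scale, and 0.11 to 0.34 for the other 5 shared probe sets. Design and any batch of processing that went with it cannot be told apart.

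At 24 h the mRNAs of Atf3 (by 1 of its probe sets), Cebpb and Ddit3 rose under lactacystin, while the changes of Atf4, Atf5, Cebpg and the other Atf3 probe set did not pass the test. Atf3 was 5.05 times the control level, Cebpb 3.05 times and Ddit3 2.33 times, all on the scale of signal + 32. These 3 of the 7 shared probe sets passed the test at 24 h, all upward, where 14.9% of all tested probe sets changed, 8.20% upward and 6.66% downward. The median log2 change over the 7 was 0.89, against -0.03 over all tested probe sets. In the fit of the U74Av2 arrays, which held 1 control array at 24 h, Ppp1r15a and Trib3 passed upward, where 7.56% of all probe sets tested on those arrays changed and 4.65% rose. The Trib3 call was lost without either lactacystin array of 24 h. Nupr1 passed the filter on low values only through its lactacystin arrays, and its values are given as a description, with no test.

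**Figure D1:**
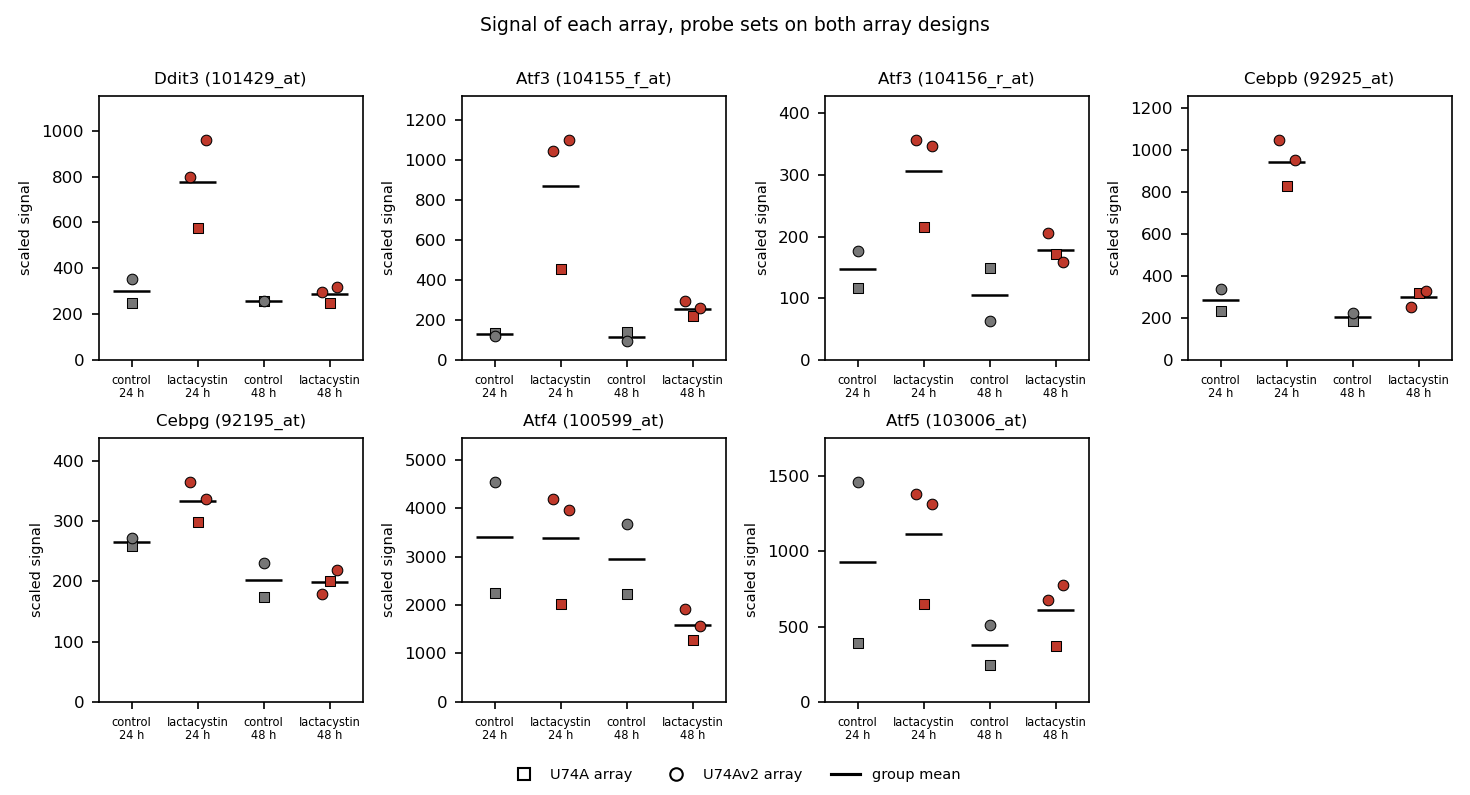
Scaled signal (linear axis from 0) of each array for the 7 member probe sets on both array designs, by group (control or lactacystin, 24 h or 48 h), with squares for U74A arrays, circles for U74Av2 arrays and a line at the group mean. The lactacystin arrays at 24 h lie above every control array for Ddit3, both Atf3 probe sets, Cebpb and Cebpg, and the lactacystin arrays at 48 h lie below every control array for Atf4.

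Atf4 encodes the pathway's central activator. In controls at 24 h the Atf4 signal was 2245 on the U74A array and 4541 on the U74Av2 array. Under lactacystin at 24 h it was 2011 on U74A and 4194 and 3956 on U74Av2. Both groups spread over the same range and overlapped, and the arrays separated by design rather than by treatment. The log2 change was -0.12 ± 0.15 (SE; limma adjusted p = 0.642, 95% interval -0.44 to 0.21). It was -0.16 within each of the designs, and its sign turned under other settings, so no direction is given.

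At 48 h the Atf4 signal fell. Controls at 48 h read 2224 on U74A and 3666 on U74Av2, and lactacystin arrays read 1281 on U74A and 1908 and 1560 on U74Av2. Every lactacystin array lay below both controls. The log2 change was -0.99 ± 0.15 (SE; limma adjusted p = 0.00225), a level 1.98 times lower, with -0.78 within U74A and -1.07 within U74Av2. Atf4 was the only 1 of the 7 shared probe sets to pass the test at 48 h, where 10.3% of all tested probe sets changed, 6.77% upward and 3.57% downward. The call was kept in 20 of 21 alternative settings and lost without the design covariate, at a log2 change of -0.86 (adjusted p = 0.379). In bulk RNA, fewer cells of a type and less mRNA per cell cannot be told apart, and this holds for each level given here.

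Atf5 encodes a close relative of ATF4 whose mRNA is also under translational control by upstream reading frames. Control signals of Atf5 at 24 h were 390.4 on U74A and 1461 on U74Av2, against 651.4 on U74A and 1383 and 1312 on U74Av2 under lactacystin. The groups overlapped, and the designs differed in direction, with 0.69 within U74A and -0.11 within U74Av2. The fitted log2 change at 24 h was 0.27 ± 0.19 (SE; limma adjusted p = 0.369). At 48 h Atf5 read 245.8 and 511.5 in controls and 373.3, 680.0 and 773.5 under lactacystin, where the first value of each is the U74A array. The change at 48 h was 0.47 ± 0.19 (adjusted p = 0.140), with 0.54 within U74A and 0.48 within U74Av2.

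Leaving out single arrays moved the Atf5 values. At 24 h the Atf5 change was 0.73 without control replicate 2 (adjusted p = 0.0373) and -0.13 without control replicate 1. At 48 h it was 0.50 without either control of 24 h (adjusted p = 0.0287 without replicate 2 and 0.0267 without replicate 1).

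Ddit3 encodes CHOP, a bZIP factor induced by ATF4 and known for its part in stress-induced cell death. The Ddit3 signal at 24 h was 247.5 and 351.7 in controls and 576.2, 797.9 and 960.2 under lactacystin. All 3 lactacystin arrays lay above both controls. The log2 change was 1.22 ± 0.16 (SE; limma adjusted p = 0.000493), and it was 1.12 within U74A and 1.24 within U74Av2. At 48 h the Ddit3 signal lay near that of the controls, on both sides of them, at 249.7, 298.6 and 316.5 against 259.0 and 258.6. The groups overlapped, and the change was 0.08 ± 0.16 (adjusted p = 0.825, 95% interval -0.27 to 0.42).

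Atf3 encodes a bZIP factor that is low in resting cells and induced by many stresses, neuronal injury among them. The probe set with the suffix f_at gave 137.1 and 121.6 in controls at 24 h and 457.9, 1046 and 1102 under lactacystin. The U74A array was the lowest of the 3 lactacystin arrays, still above both controls. The log2 change was 2.34 ± 0.29 (SE; limma adjusted p = 0.00034), with 1.53 within U74A and 2.85 within U74Av2. A second probe set, with the suffix r_at, read 117.2 and 177.3 in controls and 215.0, 356.5 and 346.1 under lactacystin. Its groups did not overlap either, but its change of 0.89 ± 0.29 missed the threshold (adjusted p = 0.0590), and passed it in 6 of 21 alternative settings, with the adjusted p between 0.00808 and 0.314. Without single arrays it passed without control 48 h replicate 1 (adjusted p = 0.0149), control 48 h replicate 2 (0.0146) and lactacystin 24 h replicate 1 (0.0377). The probe sets thus disagreed on the size of the Atf3 change, not on its direction at 24 h.

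At 48 h both Atf3 probe sets were still above the controls. The first read 140.2 and 95.02 in controls and 292.9, 262.1 and 218.3 under lactacystin. Its change was 0.91 ± 0.29 (limma adjusted p = 0.0655). The second read 148.9 and 63.1 in controls and 206.5, 158.6 and 171.6 under lactacystin, with a change of 0.66 ± 0.29 (adjusted p = 0.176). Neither passed, although groups did not overlap for either probe set. The first passed without lactacystin 24 h replicate 1 (0.97, adjusted p = 0.00713), and was 0.41 without control 48 h replicate 2 and 1.35 without control 48 h replicate 1 (adjusted p = 0.598 and 0.0519). The second passed without control 48 h replicate 1 (1.27, adjusted p = 0.0228) and was -0.044 without control 48 h replicate 2. The third Atf3 probe set, on U74Av2 alone, read 4.62 to 6.23 over all 6 arrays, below the filter on low values, and was not tested.

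Cebpb encodes C/EBP beta, a bZIP factor that can pair with ATF4. The Cebpb signal at 24 h was 231.6 and 337.7 in controls and 831.6, 1049 and 952.1 under lactacystin. The lowest lactacystin array was far above the highest control. Cebpb rose by 1.61 ± 0.17 on the log2 scale (SE; limma adjusted p = 0.000109), with 1.71 within U74A and 1.48 within U74Av2. At 48 h Cebpb read 186.5 and 224.2 in controls and 251.9, 330.0 and 320.5 under lactacystin. These groups did not overlap, and the change was 0.45 ± 0.17 (adjusted p = 0.115), which passed without lactacystin 48 h replicate 1 (0.59, adjusted p = 0.0436).

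Cebpg encodes C/EBP gamma, a short family member without a strong activation domain that forms heterodimers with ATF4. At 24 h Cebpg read 258.1 and 272.3 in controls and 298.5, 364.8 and 337.2 under lactacystin. All lactacystin arrays were above both controls by a small margin, and the change of 0.27 ± 0.15 did not pass (limma adjusted p = 0.259). At 48 h the groups overlapped, at 173.7 and 230.5 in controls and 178.4, 219.0 and 200.5 under lactacystin. The change was -0.04 ± 0.15 (adjusted p = 0.926, 95% interval -0.37 to 0.30).

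At 24 h, 5 of the 7 shared probe sets had all lactacystin arrays above both controls, where 17.2% of all tested probe sets did. At 48 h, 3 (both of Atf3 and that of Cebpb) did, where 16.6% of all did, and Atf4 alone had them all below, where 9.87% of all did. The calls of Ddit3, Cebpb and Atf3 (f_at) at 24 h were kept in 21 of 21 alternative settings each.

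**Figure D2:**
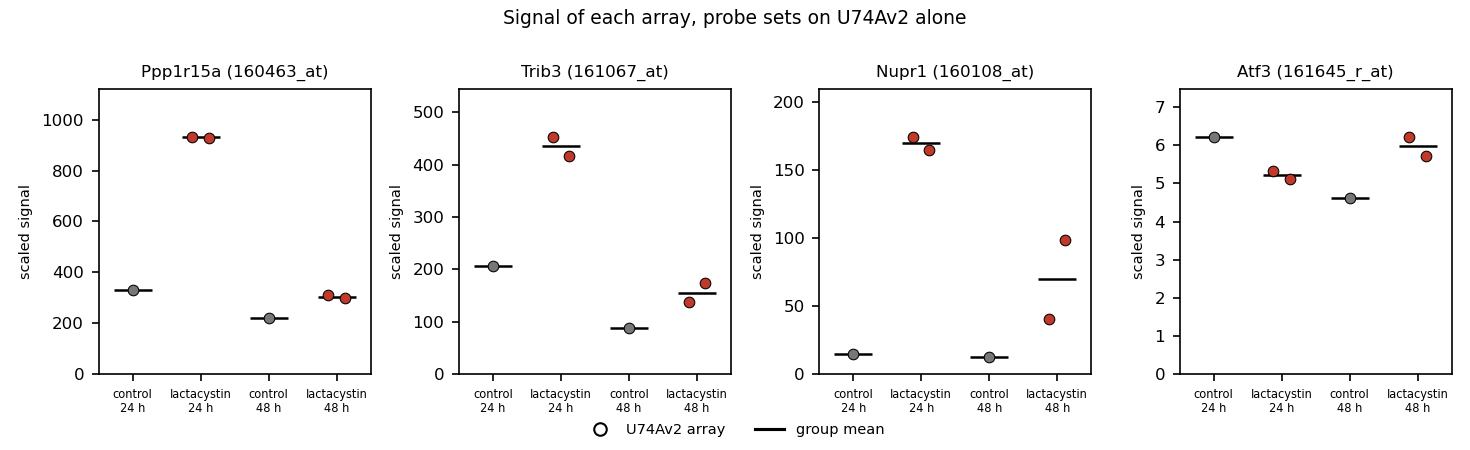
Scaled signal (linear axis from 0) of each U74Av2 array for the 4 member probe sets on U74Av2 alone, by group, with a line at the group mean; control groups hold 1 array each. Nupr1 read 12.7 and 14.8 in the controls and 164.3 and 174.5 under lactacystin at 24 h.

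The 3 genes measured on U74Av2 alone belong to the stress adaptation and feedback arm. Ppp1r15a encodes GADD34, the stress-induced subunit that directs phosphatase to eIF2alpha. Its signal was 329.5 in the control at 24 h and 933.8 and 929.0 under lactacystin. Ppp1r15a rose by 1.41 ± 0.14 on the log2 scale (SE; limma adjusted p = 0.00517), 2.66 times the control level. The call was kept in 8 of 8 alternative settings. All of these kept the 1 control array of 24 h, so they cannot show how far the call rests on it. At 48 h Ppp1r15a read 219.9 in the control and 311.5 and 297.6 under lactacystin. The change at 48 h was 0.42 ± 0.14 (adjusted p = 0.154).

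Trib3 encodes a pseudokinase that is induced by ATF4 and CHOP and damps ATF4 activity. Its signal was 206.8 in the control at 24 h and 453.6 and 415.7 under lactacystin. Trib3 rose by 0.97 ± 0.20 on the log2 scale (SE; limma adjusted p = 0.0426). At 48 h Trib3 read 87.4 in the control and 137.7 and 173.9 under lactacystin, with a change of 0.65 ± 0.20 (adjusted p = 0.127). The Trib3 call at 24 h was lost without lactacystin 24 h replicate 2 (0.91, adjusted p = 0.213), without replicate 3 (1.02, adjusted p = 0.153) and with variances not trended on the mean signal (adjusted p = 0.0742).

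Nupr1 encodes a small stress-induced nuclear protein. Its control signals were 14.8 at 24 h and 12.7 at 48 h, both below the pseudocount of 32. Under lactacystin it read 174.5 and 164.3 at 24 h and 40.8 and 98.6 at 48 h. All lactacystin arrays were above both controls, and those of 48 h lay further apart than those of 24 h. Since the mean over the 6 arrays had to exceed 45.3 to pass the filter, Nupr1 was kept only through its lactacystin arrays, and a test of its difference from the controls is not given. The log2 difference of signal + 32 was 2.11 at 24 h, which understates the ratio of the signals, and 1.13 at 48 h. At 48 h it was 1.55 without lactacystin replicate 1 and 0.70 without replicate 2. Neither Ppp1r15a nor Trib3 passed at 48 h by limma on all 6 arrays (both had an unadjusted p under 0.05), where 4.99% of all tested probe sets did.

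**Figure D3:**
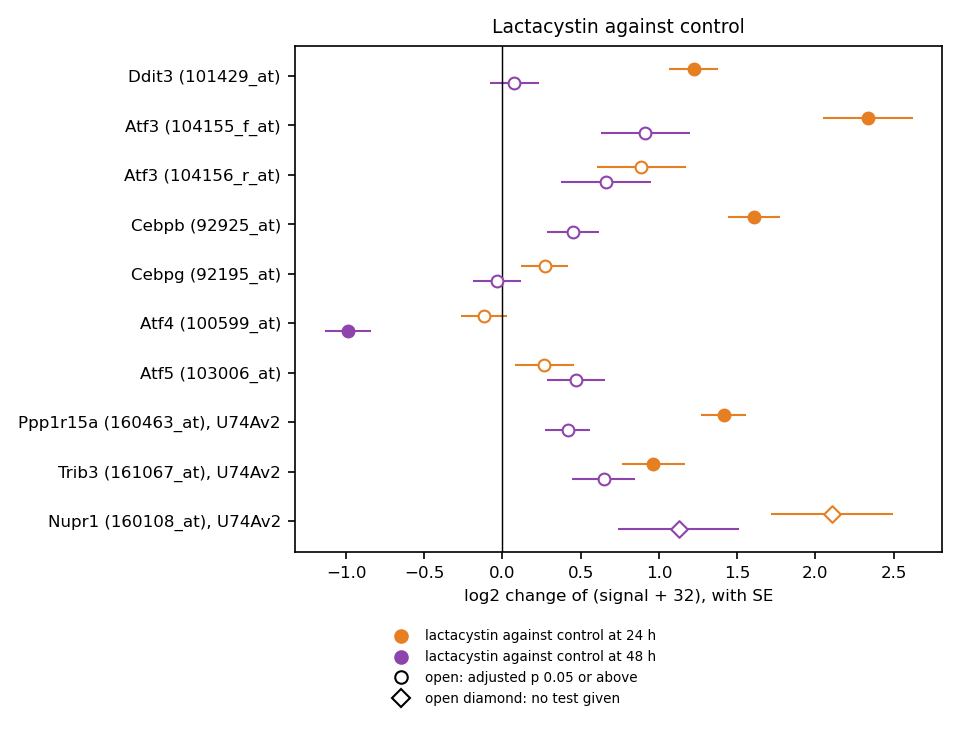
Log2 change of signal + 32 under lactacystin against control at 24 h (orange) and 48 h (purple) for the 10 member probe sets tested, with standard errors; filled points have an adjusted p under 0.05, and open diamonds (Nupr1) carry no test. Filled points at 24 h run from 0.97 for Trib3 to 2.34 for Atf3, and the only filled point at 48 h is Atf4 at -0.99.

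The effect of lactacystin differed between the times for 2 of the 7 shared probe sets, where 1.23% of all tested probe sets differed, 0.415% with a higher and 0.816% with a lower effect at 48 h. The Ddit3 effect was lower at 48 h than at 24 h by -1.14 ± 0.22 on the log2 scale (SE; limma adjusted p = 0.0290). The Cebpb effect was lower by -1.16 ± 0.23 (adjusted p = 0.0393). Each of these differences passed in 9 of 20 alternative settings, while its value stayed between -1.36 and -0.93 for Ddit3 and between -1.35 and -0.96 for Cebpb.

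Single arrays decided both calls. For Ddit3 the difference was lost without control 24 h replicate 1 (adjusted p = 0.121) or 2 (0.123), control 48 h replicate 1 (0.145), lactacystin 24 h replicate 2 (0.0798) or 3 (0.0943), and lactacystin 48 h replicate 1 (0.0674). For Cebpb it was lost without control 24 h replicate 1 (adjusted p = 0.155) or 2 (0.0992), control 48 h replicate 1 (0.132) or 2 (0.128), lactacystin 24 h replicate 2 (0.112) or 3 (0.100), and lactacystin 48 h replicate 1 (0.0574). The other members did not pass. The difference was -0.87 ± 0.21 for Atf4 (adjusted p = 0.0709), -1.42 ± 0.40 for Atf3 f_at (adjusted p = 0.112) and, on U74Av2, where 0.150% of all probe sets differed, -0.996 ± 0.20 for Ppp1r15a (adjusted p = 0.122). Without lactacystin 24 h replicate 1, Atf3 (-1.83, adjusted p = 0.00905) and Atf4 (-0.98, adjusted p = 0.0373) passed, and Atf4 also passed without lactacystin 48 h replicate 3 (-1.03, adjusted p = 0.0240). Ppp1r15a passed without lactacystin 48 h replicate 1 (-1.03, adjusted p = 0.0421).

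Under lactacystin alone, the members were lower at 48 h than at 24 h. The comparison of the 3 arrays of 48 h with the 3 of 24 h was called lower for 6 of the 7 shared probe sets, where 11.6% of all tested probe sets changed, 6.19% upward and 5.38% downward. Cebpb fell by 1.56 ± 0.15 on the log2 scale (SE; limma adjusted p = 0.000127). Atf3 f_at fell by 1.55 ± 0.25 (adjusted p = 0.00269) and Ddit3 fell by 1.32 ± 0.14 (adjusted p = 0.000200). Atf4 fell by 1.03 ± 0.13 (adjusted p = 0.000609), Atf5 fell by 0.83 ± 0.17 (adjusted p = 0.00878) and Cebpg fell by 0.66 ± 0.13 (adjusted p = 0.00946).

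The second Atf3 probe set had a change of -0.66 ± 0.25 between the times under lactacystin and did not pass (limma adjusted p = 0.122). It passed without control 48 h replicate 1 (0.0311) or 2 (0.0308), which enter that comparison through the shared estimate of the spread. Cebpg was lost without lactacystin 24 h replicate 2 (adjusted p = 0.0537). All 7 were lower at 48 h within each array design, as were 25.3% of all tested probe sets. The arrays of both times did not overlap for 6 of the 7, all but Atf5, where 9.55% of all tested probe sets were lower without overlap.

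On U74Av2, Ppp1r15a fell by 1.52 ± 0.12 between 24 h and 48 h under lactacystin (SE; limma adjusted p = 0.00323) and Trib3 fell by 1.32 ± 0.17 (adjusted p = 0.00948), where 8.66% of all probe sets tested on those arrays changed and 4.42% were lower. The Trib3 call was lost without lactacystin 24 h replicate 2 (adjusted p = 0.0799) or 3 (0.0599). The difference for Nupr1 was -1.05, and it was -1.47 without lactacystin 48 h replicate 2 and -0.62 without replicate 1.

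No member passed between the times in control cultures. The fitted change was negative for each, though the array designs did not agree in direction for all. Of the 7 shared probe sets 4 were lower at 48 h in both array designs, as were 27.8% of all tested probe sets, and 3 (both of Atf3 and that of Ddit3) differed in direction between the designs. No probe set was called between control arrays of 48 h and 24 h (0% of 6984 by limma, with 391 at an unadjusted p under 0.05). The change was -1.03 ± 0.20 for Atf5 (adjusted p = 0.399), -0.40 ± 0.18 for Cebpb (adjusted p = 0.883) and -0.35 ± 0.16 for Cebpg (adjusted p = 0.886). It was -0.16 for Atf4, -0.17 for Ddit3, and -0.12 and -0.43 for the Atf3 probe sets. On U74Av2, with 1 control array at each time, it was -0.9999 ± 0.23 for Trib3 (adjusted p = 0.447), -0.52 ± 0.17 for Ppp1r15a (adjusted p = 0.465) and the difference for Nupr1, below the pseudocount in both, was -0.07. The change under lactacystin minus that in controls was 0.20 ± 0.26 for Atf5 (adjusted p = 0.745) and -0.32 ± 0.29 for Trib3 (adjusted p = 0.583). Without control 24 h replicate 1, Atf5 passed in controls (-1.46, adjusted p = 0.0312).

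**Figure D4:**
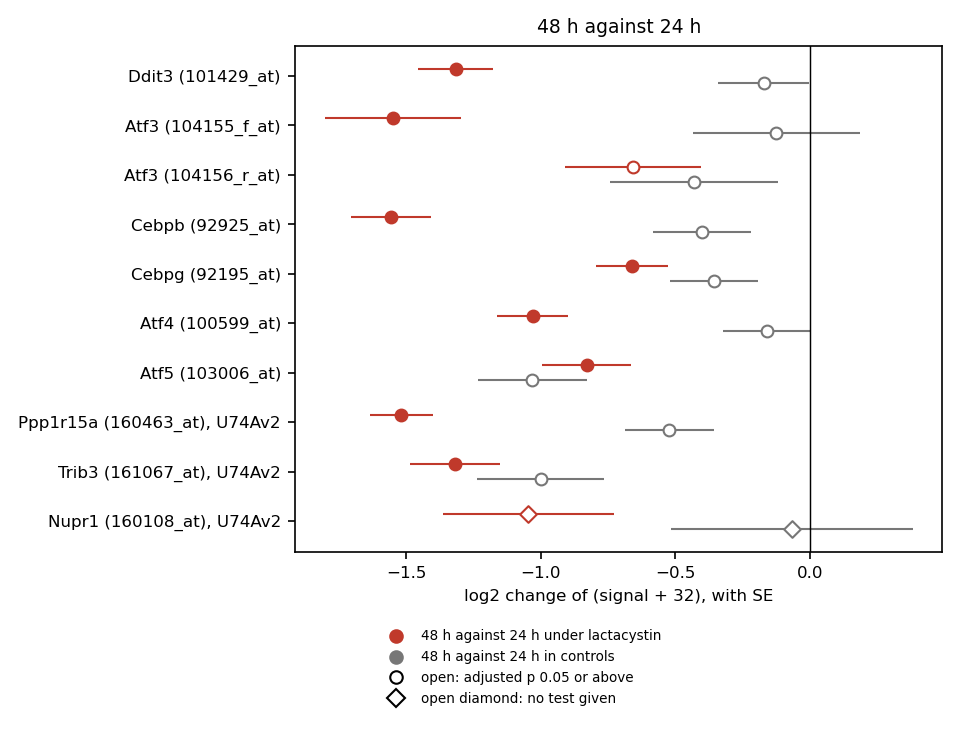
Log2 change of signal + 32 at 48 h against 24 h for the 10 member probe sets tested, under lactacystin (red) and in controls (grey), with standard errors; filled points have an adjusted p under 0.05, and open diamonds (Nupr1) carry no test. Under lactacystin the points run from -1.56 for Cebpb to -0.66 for Cebpg and the second Atf3 probe set, and no control point is filled.

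The members followed more than 1 pattern over the 10 arrays. After adjustment for array design, Pearson's r of log2 signal was 0.96 between Ddit3 and Cebpb, 0.91 between Ddit3 and Atf3 (f_at) and 0.90 between Atf3 and Cebpb. Atf4 correlated less with these, at 0.40 with Ddit3, 0.29 with Cebpb and 0.07 with Atf3, and at 0.61 with Cebpg and 0.40 with Atf5. Cebpg itself correlated more with Cebpb (0.85) and Ddit3 (0.83) than with Atf4. Atf5 did so too, at 0.81 with Cebpb and 0.76 with Ddit3. These values describe 10 arrays that share 4 groups, and they carry no test.

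Among 5535 named genes outside the members, those most like Atf4 over the arrays were Sst (r = 0.98), the neuropeptide somatostatin, Bcat1 (r = 0.98), a branched-chain aminotransferase, and Yars (r = 0.96), the tyrosyl-tRNA synthetase. The log2 change of Sst was -1.88 at 48 h and -0.31 at 24 h. Those most like Atf3 were Hspa1a (r = 0.98), an inducible HSP70 chaperone, Mdm2 (r = 0.98), the ubiquitin ligase of p53, and Rab10os (r = 0.98). The log2 change of Hspa1a was 3.49 at 24 h. These genes were picked for their likeness over the same arrays, so their changes are a description and carry no test.

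Those most like Ddit3 were Cyb5r1, Hmga2 and Tax1bp1 (r = 0.98 each). Those most like Cebpb were Eif4ebp1, the translation repressor 4E-BP1 (r = 0.98), Cyb5r1 (r = 0.98) and Snrpc (r = 0.97). Those most like Cebpg were Nmt2, Pagr1a and Hars (r = 0.95, 0.95 and 0.94), and those most like Atf5 were Cenpb, Snrp1c-ps2 and Arfrp1 (r = 0.92, 0.92 and 0.91).

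Lists of other genes around ATF4 were read from the same fit, and each is described by its counts beside the shares of all tested probe sets given above. The tRNA synthetases, which charge tRNA with amino acids, had 12 of 12 listed genes tested. At 24 h 2 rose (1 to 4 without single arrays, and 0 without the design covariate), and the median log2 change of the list was 0.29. Sars, the seryl-tRNA synthetase, rose by 0.76 ± 0.12 (limma adjusted p = 0.00219), and Tars, for threonine, rose by 0.43 ± 0.13 (adjusted p = 0.0489). At 48 h 3 fell, and the median was -0.31. Yars fell by 0.66 ± 0.15 (adjusted p = 0.0182), Mars1, for methionine, fell by 0.54 ± 0.13 (adjusted p = 0.0224), and Nars, for asparagine, fell by 0.48 ± 0.12 (adjusted p = 0.0231). Between 24 h and 48 h under lactacystin 11 of the 12 fell, with a median of -0.70 against 0.04 over all tested probe sets. In controls none passed by limma, with 1 lower at an unadjusted p under 0.05, and the median was -0.20. The count of 11 ran from 8 to 12 when single arrays were left out, and was 3 without the design covariate.

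The calls of these synthetases at 48 h rested on few control arrays. Yars was lost without control 48 h replicate 1 (limma adjusted p = 0.119) or 2 (0.127). Nars was lost without control 48 h replicate 1 (0.110) or 2 (0.172) or lactacystin 48 h replicate 1 (0.0640). Mars1 was lost without control 48 h replicate 1 (0.166) or 2 (0.0825) or lactacystin 48 h replicate 2 (0.0586). With the replicate number as a block beside the array design, Nars (0.0649) and Mars1 (0.0585) were lost as well.

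Amino acid transport had 7 of 9 listed genes tested, of which 2 rose at 24 h and 1 fell at 48 h. Slc3a2, the shared heavy chain of several amino acid exchangers, rose by 0.57 ± 0.11 at 24 h (limma adjusted p = 0.00517), with a change of 0.01 ± 0.11 at 48 h. Slc7a3, a cationic amino acid transporter, rose by 0.50 ± 0.13 at 24 h (adjusted p = 0.0278) and fell by 0.85 ± 0.13 at 48 h (adjusted p = 0.00265). Between the times under lactacystin 5 of the 7 fell, with a median of -0.67, against -0.39 in controls, where none passed, with 3 lower at an unadjusted p under 0.05. The count of 5 was 3 to 5 when single arrays were left out, with 3 without lactacystin 24 h replicate 2 or 3 or lactacystin 48 h replicate 1, and 1 without the design covariate. Without single arrays, Slc3a2 was lost without control 24 h replicate 1 (adjusted p = 0.0531). Slc7a3 at 24 h was lost without each of the 5 arrays of 24 h (adjusted p from 0.0524 to 0.169), and at 48 h without control 48 h replicate 2 (0.0519).

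Amino acid synthesis and folate metabolism had 6 of 13 listed genes tested, and they did not move together. At 24 h 1 rose, Psph, the last enzyme of serine synthesis (0.44 ± 0.12, limma adjusted p = 0.0377). At 48 h, Asns, the asparagine synthetase, fell by 0.52 ± 0.10 (adjusted p = 0.00942), and Mthfd2, a mitochondrial folate enzyme, fell by 0.86 ± 0.17 (adjusted p = 0.00841). Psat1, of serine synthesis, rose by 0.52 ± 0.09 (adjusted p = 0.00553), and Pck2, the mitochondrial phosphoenolpyruvate carboxykinase, rose by 0.70 ± 0.20 (adjusted p = 0.0497). The change of Asns at 24 h was 0.01 ± 0.10. The median of the list was 0.14 at 24 h and 0.04 at 48 h, and -0.55 between the times under lactacystin, where 4 fell. In controls the median between the times was -0.33, and none passed, with 3 lower at an unadjusted p under 0.05. The count of 4 was 2 to 4 when single arrays were left out, with 2 without lactacystin 24 h replicate 2 or 3 or lactacystin 48 h replicate 1, and 0 without the design covariate. Psph was lost without 5 single arrays (adjusted p from 0.0517 to 0.282). Asns and Mthfd2 were lost without control 48 h replicate 1 (adjusted p = 0.116 and 0.106), and Psat1 without either control of 48 h (0.0605 and 0.0606). Pck2 was lost without each of the 10 arrays in turn (adjusted p from 0.0529 to 0.216).

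Other stress targets of ATF4 and CHOP had 11 of 22 listed genes tested, of which 3 rose at 24 h and 2 of those rose at 48 h. Gadd45a, a growth arrest gene that p53 also induces, rose by 1.87 ± 0.19 at 24 h (limma adjusted p = 9.3e-05) and 0.85 ± 0.19 at 48 h (adjusted p = 0.0153). Sqstm1, the autophagy receptor p62 and also a target of NRF2, rose by 1.68 ± 0.16 at 24 h (adjusted p = 9.0e-05). Eif4ebp1 rose by 1.48 ± 0.16 at 24 h (adjusted p = 0.000134) and 0.58 ± 0.16 at 48 h (adjusted p = 0.0391). The other 8, among them Ddit4, Herpud1, Stc2 and Vegfa, did not pass at either time, and the list's median was 0.26 at 24 h and 0.14 at 48 h. At 48 h, Gadd45a was lost without control 48 h replicate 2 (adjusted p = 0.204), and Eif4ebp1 without 7 single arrays (adjusted p from 0.0644 to 0.354).

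The upstream arm of kinases, phosphatases and eIF2 factors had 14 of 20 listed genes tested. Of these 2 rose at 24 h. Eif2b1, a subunit of the exchange factor for eIF2, rose by 0.56 ± 0.14 (limma adjusted p = 0.0213), and Impact, which restrains the kinase GCN2, rose by 1.46 ± 0.41 (adjusted p = 0.0337). At 48 h none passed, with 1 lower at an unadjusted p under 0.05. The kinase genes did not pass at either time. The change at 24 h was 0.19 ± 0.16 for Eif2ak3, which encodes PERK, 0.07 ± 0.20 for Eif2ak4, which encodes GCN2, and -0.22 ± 0.12 for Eif2ak1, which encodes HRI. Eif2b1 was lost without each of the 5 arrays of 24 h (adjusted p from 0.0527 to 0.219), and Impact without 4 of them, all but lactacystin replicate 1 (0.0906 to 0.276).

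Other bZIP factors, which can pair with the members or compete with them, had 19 of 31 listed genes tested. At 24 h 3 rose and 1 (Atf2) fell, and at 48 h 2 rose and 1 fell. The counts of genes that rose include Fosl1, which encodes the AP-1 subunit FRA1. Its mean signal was 13.1 in controls and 196.9 under lactacystin, so it passed the filter on low values only through the lactacystin arrays, and its log2 differences of 3.02 at 24 h and 1.08 at 48 h are a description. Nfe2l2, which encodes NRF2, a protein held down by the proteasome in resting cells, rose by 1.49 ± 0.15 at 24 h (adjusted p = 9.8e-05) and 1.58 ± 0.15 at 48 h (adjusted p = 0.000171). Mafg, a partner of NRF2, rose by 0.70 ± 0.16 at 24 h (adjusted p = 0.0134), and Nfil3, a repressor, fell by 0.68 ± 0.19 at 48 h (adjusted p = 0.0393).

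Single arrays bore on part of the bZIP calls. Mafg was lost without control 24 h replicate 1 (limma adjusted p = 0.0521) or 2 (0.171). Atf2 was lost without 7 single arrays (0.0568 to 0.226). Nfil3 was lost without 8 single arrays (0.0540 to 0.331). Nfe2l2 kept its calls at both times without each of the 10 arrays, but lost both without the design covariate (0.0529 at 24 h and 0.0595 at 48 h).

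The unfolded protein response of the endoplasmic reticulum outside ATF4 had 10 of 18 listed genes tested. Hspa5, which encodes the chaperone BiP, rose by 0.82 ± 0.10 at 24 h (limma adjusted p = 0.000336), the 1 gene of the list that did, and had a change of -0.06 ± 0.10 at 48 h (adjusted p = 0.772). Xbp1, a factor of the IRE1 branch, fell by 0.66 ± 0.18 at 48 h (adjusted p = 0.0358), a call lost without 6 single arrays (0.0528 to 0.255). The list's median was -0.04 at 24 h and -0.05 at 48 h, near that of all tested probe sets.

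**Figure D5:**
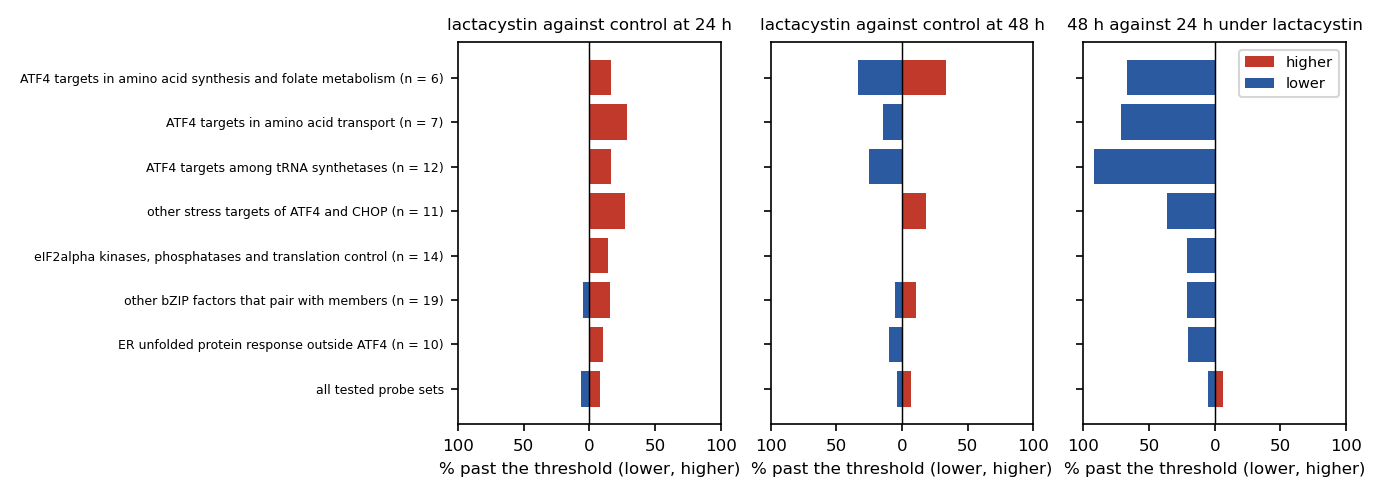
Share of tested genes of each list (number tested in brackets) called higher (red, to the right) and lower (blue, to the left), in percent, for lactacystin against control at 24 h, at 48 h, and 48 h against 24 h under lactacystin; the bottom bar gives all 6984 tested probe sets. In the third panel 11 of 12 tRNA synthetases, 5 of 7 transport genes and 4 of 6 synthesis genes are lower; without single arrays these counts were 8 to 12, 3 to 5 and 2 to 4, and without the design covariate 3, 1 and 0.

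Counts of cell type markers stand beside the shares of all tested probe sets, 8.20% higher and 6.66% lower at 24 h. At 48 h these shares were 6.77% and 3.57%. A count of 1 in lists this short is not read as a result. None of the oligodendrocyte (1 tested), endothelial (2 tested) and erythroid (1 tested) markers passed at 24 h or 48 h. Of 8 neuronal markers tested, 3 fell at 24 h and 3 at 48 h, counts that were 1 to 3 and 0 to 3 without single arrays. The summed signal of these 8 was 20414 to 27591 in controls at 24 h, 13964 to 19305 under lactacystin at 24 h, 25133 to 29824 in controls at 48 h and 15458 to 24260 under lactacystin at 48 h. Of 8 markers of astrocytes and radial glia tested, 1 rose and 2 fell at 24 h and 3 rose at 48 h (1, 1 to 2 and 1 to 3 without single arrays), and the sum over the 9 on the arrays was 12129 to 18109, 11519 to 16431, 12437 to 18577 and 15619 to 19037 in the same order. Of 6 microglial markers tested 1 rose at 24 h and 3 at 48 h (0 to 1 and 0 to 3 without single arrays), and the sum over the 10 on both designs was 600.4 to 884.4, 735.0 to 1414, 516.8 to 1065 and 994.7 to 1594. The 3 include Tyrobp, which passed the filter on low values only through the lactacystin arrays. Of 8 fibroblast and mural markers tested 1 rose at 24 h and 2 at 48 h (0 to 1 and 2 without single arrays), and the sum over the 10 on both designs was 1950 to 1996, 2015 to 3332, 1819 to 1866 and 2847 to 4595. Without the design covariate 1 astrocyte marker fell at 24 h and 1 rose at 48 h, and all the other marker counts were 0. Mean signals were under 32 for 4 of 5 oligodendrocyte, 3 of 10 microglial, 3 of 6 endothelial and 1 of 2 erythroid markers, and no marker value was 0. Sums of linear signals follow the genes with the highest signal. Mean signals over the arrays were 9808 for Stmn2 and 5985 for Gap43 among the neuronal markers. Among the astrocyte markers they were 11695 for Fabp7, which did not pass at either time, 429 for Gfap and 242 for Aqp4. The part of these marker shifts in the member values was not tested.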

How the data were processed

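RNA of 10 samples was measured on Affymetrix U74A (4 arrays) and U74Av2 (6 arrays). The authors' deposited tables hold 1 intensity (summary signal, linear scale) per probe set, made with MAS5 per the submitters' processing notes (no version in the sources used here). Precision is limited by the number of arrays.

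Control probe sets (66) were dropped. Each array was scaled to a 2% trimmed mean of 500 over the 9977 shared probe sets. For the U74Av2 fit the scaling was over all 12422 remaining probe sets of that design. Then 32 was added and log2 taken, which understates changes of low signals. The 30% with the lowest mean were left out. Groups came from the sample labels. Tests were two-sided, by limma 3.58.1 in R 4.3.3 (lmFit, eBayes with trend, array design as a covariate, 5 residual degrees of freedom, or 2 on U74Av2 alone), Benjamini-Hochberg adjusted, with a threshold of 0.05, and were tested on simulated data. Genes were named through the platform annotation, updated by Entrez identifier through RefSeq GRCm38.p6 (10839 of 10855 probe sets with 1 symbol). The probe set with the highest mean stood for a gene of a list.

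The members and lists were chosen with earlier results of these data known. Named were all members, up to 4 genes per list with the largest change among those past the threshold at 24 h or 48 h, and the 3 genes whose design-adjusted values correlated best with each called member. Psph, Atf2, some other genes of counts of 5 or fewer, the genes named beside a count that did not pass, and the kinase genes were named outside this rule, after their values were seen. Alternatives were the pseudocount, scaling, filter, design covariate, replicate block, variance trend, arrays of 1 design or time alone, and leaving out each array. Leaving out each lactacystin array and the trend in the U74Av2 fit were added after seeing the data.

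Replicate numbers are shared between groups. Deviations from the group mean correlated at -0.62 to -0.56 for same-numbered arrays of different designs. For arrays of the same design they correlated at 0.24 to 0.68 with the same number and at 0.30 to 0.74 with different numbers. The array design was not removed and went with the sign, so this check cannot show whether arrays of the same number share a culture. The labels give no pairing, and the numbers were not taken as pairs.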

Additional observations from a re-analysis of the deposited data

Results flagged for a closer look

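Genes named above were flagged where the lactacystin effect differed between 48 h and 24 h by the limma test of that difference. It passed for 1.23% of all tested probe sets, 0.415% with a higher and 0.816% with a lower effect at 48 h. From 2 to 186 probe sets were called across alternative settings. The list genes were named for passing at 24 h or 48 h. Those values also make up the difference, so these flags add no separate support. Among the members the lactacystin effect was lower at 48 h for Ddit3 (-1.14, adjusted p = 0.0290) and Cebpb (-1.16, adjusted p = 0.0393). Each of these calls was kept in 9 of 20 alternative settings. The effect was also lower at 48 h for the list genes Slc7a3 (-1.34, adjusted p = 0.00808), Sqstm1 (-1.35, adjusted p = 0.0174) and Hspa5 (-0.88, adjusted p = 0.0130). For Fosl1, with controls below the filter on low values, the difference of -1.95 is a description, with no test. Of the astrocyte markers, the effect was higher at 48 h for Gfap (2.04, adjusted p = 0.00186) and Aqp4 (2.38, adjusted p = 0.00186). Gfap and Aqp4 fell at 24 h by 0.64 and 1.89. Their changes at 48 h were 1.40 and 0.49, of which that of Gfap passed. Gja1, of the same list, instead rose at 24 h by 1.04 (adjusted p = 0.00137) and at 48 h by 0.90 (adjusted p = 0.00471). Its difference between the times was -0.14 (adjusted p = 0.787). Groups of 2 or 3 arrays are too small for a check of single outlying samples.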

How the results depend on the processing

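Calls over all tested probe sets, by limma, moved with the design covariate and with single arrays. Without the covariate 248 were called at 24 h (1038 with it), 110 at 48 h (722), 2 for the difference between times (86) and 138 for 48 h against 24 h under lactacystin (808). On the U74Av2 arrays alone 558, 388 and 12 were called in the first 3 comparisons. On the arrays of 48 h alone 440 were called at 48 h. For the difference between times 48 were called without the filter on low probe sets and 36 without the variance trend. Leaving out 1 array at a time gave 308 to 1107 calls at 24 h, 209 to 826 at 48 h, 5 to 186 for the difference, 329 to 831 for the times under lactacystin and 0 to 2 between controls.

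Of the member probe sets, the 1 called at 48 h became 0 without the covariate, 3 on U74Av2 alone, 2 on the arrays of 48 h alone and 1 to 2 without single arrays. The 2 called for the difference became 0 without the filter, without the covariate, on U74Av2 alone and without the trend, and 0 to 4 without single arrays. The 6 called lower at 48 h under lactacystin became 3 without the covariate. Between controls 0 to 1 was called without single arrays. With the replicate number as a block beside the array design, 1 member was called for the difference, Cebpb, since Ddit3 moved to an adjusted p of 0.0507.

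Directions turned for some member values, none of them called with all arrays. Atf4 at 24 h was 0.012 without the covariate and -0.25 to 0.039 without single arrays. Atf5 at 24 h was -0.11 on U74Av2 alone and -0.13 to 0.73 without single arrays. Ddit3 at 48 h was -0.043 with quantile normalisation, -0.0042 with the replicate block and -0.16 to 0.28 without single arrays. Without single arrays at 48 h, Atf3 r_at (0.66 with all arrays) ran from -0.044 to 1.27 and Cebpg from -0.16 to 0.11. For the difference, Atf3 r_at was 0.29 on U74Av2 alone and -0.88 to 0.43 without single arrays, and Atf5 was -0.23 to 0.63. Without single arrays the change between controls was -0.59 to 0.34 for Atf3 f_at, -1.09 to 0.23 for Atf3 r_at (-0.43 with all arrays) and -0.39 to 0.046 for Ddit3. Nupr1 between controls was 0.072 with quantile normalisation. The cause of these turns was not tested.

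Scaling left the median change of all probe sets within 0.1 of 0. With 2 or 3 arrays in a group, and 1 control array at each time for Nupr1, Ppp1r15a and Trib3, changes that did not pass are not shown to be absent.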
